A study of Mus musculus with 18 samples.

Results

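B cells that present antigen to T cells need a second set of surface proteins besides the antigen receptor and MHC class II. CD80 and CD86 (the B7 proteins) bind CD28 and CTLA-4 on T cells, ICOSL binds ICOS on follicular helper T cells, and CD40 receives the CD40 ligand signal that sustains the germinal center. CD83 holds MHC class II and CD86 at the surface, SLAMF1 and SLAMF6 bind their like on the T cell, and CD23, CD38 and CD24 are surface proteins by which B cell stages are commonly told apart. The 10 genes Cd80, Cd86, Icosl, Cd40, Cd83, Slamf1, Slamf6, Fcer2a (CD23), Cd38 and Cd24a were taken by symbol from the deposited table of 21761 genes, and all 10 were found. The set was selected with results of these data known, and Cd86 was included because the study names it for the comparison of genotypes in plasma cells.

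RNA-seq was performed on 5000 sorted cells per library, with 18 libraries in 6 groups of 3. Naive B cells (nB) were B220+ Fas- GL7- cells of lymph nodes from mice that had not been immunized. Germinal center B cells (GCB) were B220+ Fas+ GL7+ lymph node cells that bound phycoerythrin (PE), and the plasma cells (BMPC) were sorted from bone marrow by CD138. GCB and BMPC were taken 30 days after PE was given in complete Freund's adjuvant. All mice were homozygous for floxed Dnmt3a (Dnmt3a fl/fl) and floxed Dnmt3b (Dnmt3b fl/fl), the controls included. Dnmt3-deficient mice carried in addition 1 copy of a Cre that is active in B cells, and their Dnmt3-sufficient littermates carried no Cre, on the mixed background that the labels write as B6;129S4-Dnmt3atm3.1Enl Dnmt3btm5.1Enl/Mmnc. The mice were adults, and their exact age is not used here. Dnmt3a and Dnmt3b place new DNA methylation. The question was how each stage differs when both enzymes are lost. Each GCB library pooled a pair of mice, and no pooling is stated for nB or BMPC.

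Values are FPKM, reads scaled to the exon length of the gene and to the reads of the library on listed genes, and changes are differences of log2(FPKM + 1), a scale that understates the change of low genes. A gene was called at an adjusted p of 0.05 or less (limma, Benjamini-Hochberg over 11522 genes) with a change of at least 1. The nB libraries held 6692516 to 8987922 reads and the GCB libraries 7644544 to 8903872, while BMPC libraries held 1355231 to 3803197, so a low gene is less reliably seen in BMPC, where 24 of the 60 member values were 0 against 0 of 60 in GCB and 1 of 60 in nB. The median SD of log2(FPKM + 1) within a group was 0.271 to 0.412 in nB and GCB and reached 0.775 and 0.816 for the BMPC genotypes. Each gene had 1 spread over all 6 groups in the fit. Intervals and p of comparisons without BMPC therefore also depend on the BMPC spread. Markers matched the sorts: summed germinal center markers were 726 to 949 FPKM in GCB and at most 73.6 elsewhere, and summed plasma cell markers were 17008 to 48114 in BMPC and at most 917 elsewhere. Jchain made up most of the plasma cell sum, at 16189 to 46609 FPKM in BMPC. Of the 6 plasma cell markers 5 were called higher in BMPC than in nB and 6 higher than in GCB. The shares of all genes tested were 9.43% and 7.72%. Irf4 was not called against nB (-0.43). The nB libraries also held Siglech, a plasmacytoid dendritic cell marker, at 22.6 to 115 FPKM. Their summed T cell markers were at 29.7 to 72.6 FPKM and their macrophage and monocyte markers at 1.70 to 73.9. The erythroid marker Hba-a2 was at 11.7 to 117 FPKM in Dnmt3-deficient nB and at most 0.808 in Dnmt3-sufficient nB (limma adjusted p 0.0228). The BMPC libraries held reads of T cell, macrophage, neutrophil, erythroid and early B cell markers, given below where they touch a member.

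Most members were highest in nB and lowest in BMPC. The order of mean FPKM was nB, GCB, BMPC for 6 members (Icosl, Cd40, Cd83, Slamf1, Slamf6 and Fcer2a), GCB, nB, BMPC for Cd80 and Cd86, nB, BMPC, GCB for Cd38 and GCB, BMPC, nB for Cd24a. The place of Cd38 in BMPC rested on Dnmt3-deficient replicate 3 (30.6 FPKM), and the fitted log2 change from GCB to BMPC, given below, had the opposite sign. Cd24a was the member that remained abundant in BMPC. In bulk RNA of this kind, fewer cells with a transcript and less transcript per cell cannot be told apart.

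**Figure D1:**
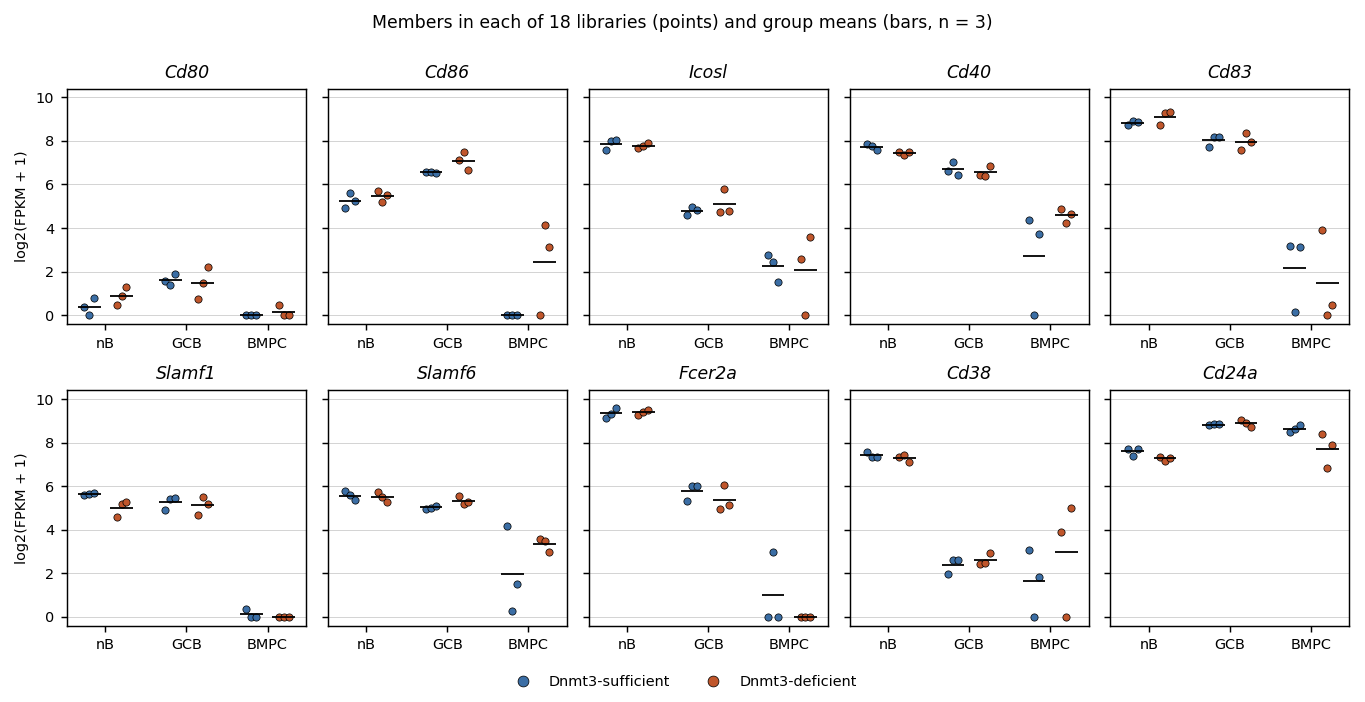
Level of the 10 members in the 18 libraries, with log2(FPKM + 1) on the vertical axis and the 3 cell types on the horizontal axis. Each point is 1 library, blue for Dnmt3-sufficient and orange for Dnmt3-deficient, and each bar is the mean of 3 log2 values. Cd86 and Cd24a were highest in GCB, Cd38 was already low in GCB, and BMPC points spread the widest.

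The bases just before the start of transcription are shown for 5 members that differ in this pattern. Icosl, Fcer2a and Cd38 were called lower in GCB than in nB, while Slamf1 and Slamf6 were called lower only in BMPC. The sequences are from RefSeq (GRCm38.p6) and were located by exact match in NCBIM37 (mm9). Each is read 5′ to 3′ on the strand of its gene, and capitals mark CpG, the dinucleotide that Dnmt3a and Dnmt3b methylate. Of 3 starts listed for Fcer2a, the one at the annotated 5′ end was taken.
Icosl (chr10:77531863-77532112, plus strand): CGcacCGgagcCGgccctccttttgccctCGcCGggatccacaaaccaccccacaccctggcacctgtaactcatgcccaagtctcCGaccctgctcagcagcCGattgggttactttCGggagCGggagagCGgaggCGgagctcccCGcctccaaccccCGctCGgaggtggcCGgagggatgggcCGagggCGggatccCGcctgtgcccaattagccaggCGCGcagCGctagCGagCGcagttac
Fcer2a (chr8:3694175-3694424, minus strand): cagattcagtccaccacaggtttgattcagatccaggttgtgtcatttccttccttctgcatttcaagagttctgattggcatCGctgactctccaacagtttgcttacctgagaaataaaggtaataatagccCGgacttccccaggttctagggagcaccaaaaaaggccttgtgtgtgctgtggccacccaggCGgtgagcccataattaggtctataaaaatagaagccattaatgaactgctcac
Cd38 (chr5:44259798-44260047, plus strand): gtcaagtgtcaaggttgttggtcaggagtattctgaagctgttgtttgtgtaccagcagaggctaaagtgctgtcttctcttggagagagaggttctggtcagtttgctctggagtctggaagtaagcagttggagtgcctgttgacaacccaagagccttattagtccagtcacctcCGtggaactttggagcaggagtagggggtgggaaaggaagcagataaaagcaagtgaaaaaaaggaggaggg
Slamf1 (chr1:173697013-173697262, plus strand): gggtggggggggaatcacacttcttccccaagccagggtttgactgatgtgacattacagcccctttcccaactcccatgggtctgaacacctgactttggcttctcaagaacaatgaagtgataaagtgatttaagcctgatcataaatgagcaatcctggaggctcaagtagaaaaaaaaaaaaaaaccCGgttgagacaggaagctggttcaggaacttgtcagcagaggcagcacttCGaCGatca
Slamf6 (chr1:173847343-173847592, plus strand): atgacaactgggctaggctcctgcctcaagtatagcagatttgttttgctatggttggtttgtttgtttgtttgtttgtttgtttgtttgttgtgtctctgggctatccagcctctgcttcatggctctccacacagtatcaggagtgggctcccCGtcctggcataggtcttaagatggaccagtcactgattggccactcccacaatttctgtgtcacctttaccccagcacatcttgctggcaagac

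Icosl differed from the other 4 windows in base composition. It held 23 CpG in 250 bases, more than 86.6% of the 32536 distinct windows of this length in the table, whose median was 6. Fcer2a and Slamf1 held 3 each, and Cd38 and Slamf6 held 1 each. The E-box CAGGTG, searched on both strands, was found once in the Icosl and once in the Slamf1 window and in 17.3% of all windows. The PU.1-IRF composite motif, GGAA and GAAA with NN between them (2.31% of all windows), and the kappaB motif (3.92%), searched in the same way, were not found in these 5 windows. No methylation was measured in these libraries.

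Between nB and GCB, the members moved in both directions. Of the 10, 2 rose in GCB (Cd86 and Cd24a), where 9.47% of all genes tested were called higher, and 3 fell (Icosl, Fcer2a and Cd38), where 12% of all genes were called lower. The median change of the members was -0.66 beside -0.13 over all genes tested.

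Cd86 (Entrez 12524) lies on chromosome 16 of mm9 from 36603955 to 36666167. The nB libraries held it at 28.9, 47.2 and 36.8 FPKM (Dnmt3-sufficient) and 51.0, 35.9 and 44.5 (Dnmt3-deficient). In GCB it was at 95.1, 93.4 and 91.9 FPKM in the Dnmt3-sufficient and 139, 178 and 101 in the Dnmt3-deficient libraries. Every GCB library therefore lay above every nB library. The mean was 2.86-fold higher in GCB, a change of 1.47 (95% interval 0.43 to 2.51, limma adjusted p 0.0352). The call was lost (adjusted p 0.0528 to 0.0799) without any 1 of the 12 nB and GCB libraries other than Dnmt3-sufficient nB replicate 2 and Dnmt3-deficient GCB replicate 3, and also with a pseudocount of 0.1 (0.276), no filter on low values (0.0883), median of ratios scaling (0.0539) or 1 genotype alone (0.248 in Dnmt3-sufficient and 0.15 in Dnmt3-deficient libraries), while the fit to the nB and GCB libraries alone gave 3.82e-05.

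Cd80 (Entrez 12519, chromosome 16, 38459013 to 38495821), the other B7 ligand of CD28, was far lower throughout, at 0 to 1.43 FPKM in nB (median 0.578) and 0.657 to 3.61 in GCB (median 1.89). The libraries of nB and GCB overlapped. The change of 0.90 (95% interval 0.33 to 1.48, limma adjusted p 0.0190) was under the minimum of 1. It passed without Dnmt3-deficient GCB replicate 1 (1.09), Dnmt3-deficient nB replicate 3 (1.00) or Dnmt3-sufficient nB replicate 3 (1.01), in Dnmt3-sufficient libraries alone (1.23) and with voom on the recovered reads (2.30).

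Icosl (Entrez 50723, chromosome 10, 77532105 to 77546000) moved opposite to Cd86. It was at 189 to 260 FPKM in nB (median 227) and 23.1 to 53.7 in GCB (median 26.8), with no overlap. The mean was 7.27-fold lower in GCB, a change of -2.87 (95% interval -3.83 to -1.91, limma adjusted p 1.35e-04).

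Cd40 (Entrez 21939, chromosome 2, 164881127 to 164898448) was at 162 to 230 FPKM in nB (median 186) and 82.0 to 130 in GCB (median 91.3). Cd83 (Entrez 12522, chromosome 13, 43880476 to 43898499) was at 424 to 637 in nB (median 474) and 192 to 327 in GCB (median 265). Neither gene's libraries overlapped between nB and GCB, and the means were 1.95-fold and 1.97-fold lower in GCB, yet neither was called. The changes were -0.97 for Cd40 (95% interval -2.04 to 0.11, limma adjusted p 0.181) and -0.98 for Cd83 (-2.21 to 0.25, adjusted p 0.240). With a quality weight per library Cd83 was called, at -1.02 with an adjusted p of 2.65e-03. Over all alternatives the limma adjusted p ran from 1.03e-04 to 0.531 for Cd40 and from 7.98e-05 to 0.603 for Cd83. The change of Cd40 stayed between -1.05 and -0.90, and Cd40 was not called in any of them. That of Cd83 stayed between -1.15 and -0.81.

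The SLAM receptors showed the smallest differences between nB and GCB. Slamf1 (Entrez 27218, chromosome 1, 173697258 to 173731315) was at 23.0 to 50.8 FPKM in nB (median 42.6) and 24.6 to 44.6 in GCB (median 38.4). Slamf6 (Entrez 30925, chromosome 1, 173847646 to 173879083) was at 37.1 to 53.2 in nB (median 45.9) and 30.1 to 46.2 in GCB (median 34.4). Libraries of both stages overlapped for both genes. The changes were -0.13 for Slamf1 (95% interval -0.70 to 0.43) and -0.36 for Slamf6 (-1.32 to 0.61), so a change of 1 is outside the first interval and inside the second.

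Fcer2a and Cd38 had the strongest falls of the set. Fcer2a (Entrez 14128, chromosome 8, 3681737 to 3694174), which encodes the low-affinity IgE receptor CD23 of follicular B cells, was at 559 to 767 FPKM in nB (median 658) and 30.2 to 66.4 in GCB (median 50.9). The mean was 13.5-fold lower in GCB, a change of -3.79 (95% interval -4.67 to -2.91, limma adjusted p 2.93e-06). Cd38 (Entrez 12494, chromosome 5, 44260048 to 44303614), an ectoenzyme that consumes NAD and that mouse germinal center B cells are known to lose, was at 138 to 190 FPKM in nB (median 161) and 2.92 to 6.74 in GCB (median 4.80). The mean was 34.2-fold lower, a change of -4.85 (-6.24 to -3.47, adjusted p 2.76e-05).

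Cd24a (Entrez 12484, chromosome 10, 43298975 to 43304068), which encodes the small GPI-anchored glycoprotein CD24, was the other member that rose. It was at 142 to 210 FPKM in nB (median 164) and 426 to 528 in GCB (median 460), with no overlap. The mean was 2.68-fold higher, a change of 1.43 (95% interval 1.02 to 1.83, limma adjusted p 2.67e-05). Cd24a has near-identical copies in the genome, and the authors' mapping reported at most 1 place per read, so its level is uncertain.

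**Figure D2:**
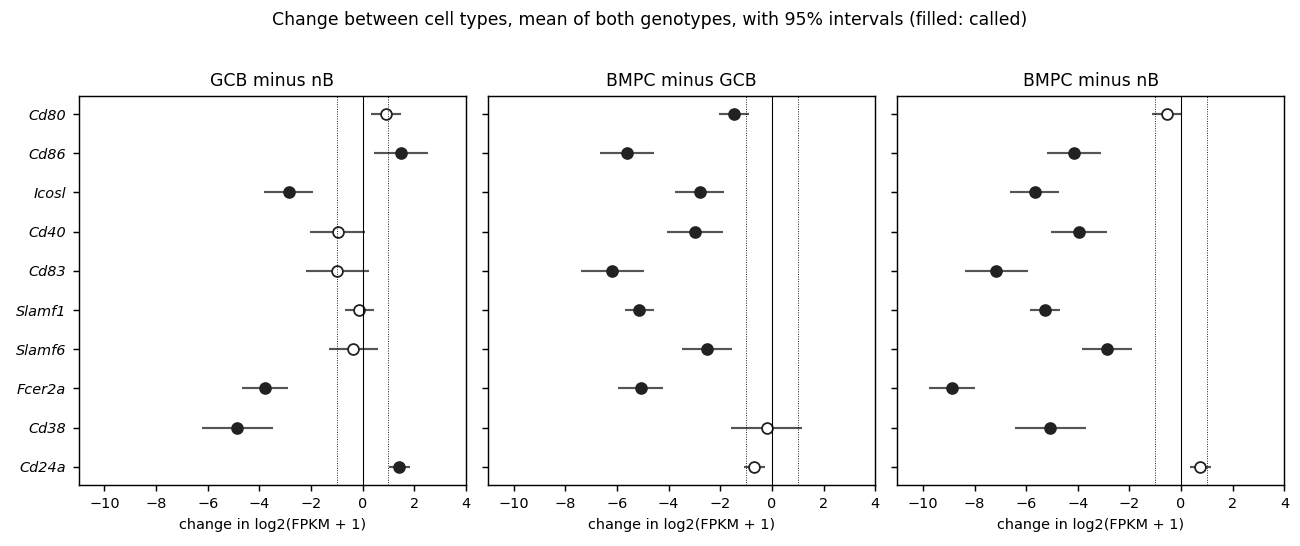
Change in log2(FPKM + 1) between cell types for each member, as the mean of both genotypes, with 95% intervals as lines. Filled points were called and dotted lines mark a change of 1 in either direction. In GCB against nB the points fall on both sides of 0, while in BMPC against GCB 8 of the 10 are filled and lie below 0.

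In BMPC, 8 of 10 members were lower than in nB and 0 were higher, where 39.3% of all genes tested were called lower and 9.43% higher. Against GCB also 8 were lower and 0 higher, where 33.7% and 7.72% of all genes were called. The median change was -4.60 against nB (-0.79 over all genes) and -2.89 against GCB (-0.66 over all genes), and both medians were the same with Cd80 and Slamf1 at the limit of detection. The 2 comparisons share the BMPC libraries. The members called against nB were all but Cd80 and Cd24a, and those called against GCB were all but Cd38 and Cd24a.

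Slamf1 and Fcer2a were nearly absent from BMPC. Slamf1 had 2 reads in 1 BMPC library and 0 in the other 5, and with each library set at 3 reads the mean was at least 98.8-fold lower than in nB and at least 88.8-fold lower than in GCB (limma adjusted p 1.56e-10 and 2.67e-10). Fcer2a had 80 reads (6.81 FPKM) in Dnmt3-sufficient BMPC replicate 2 and 0 in the other 5 libraries. Its change was -8.87 against nB (95% interval -9.76 to -7.99, adjusted p 5.95e-11) and -5.09 against GCB (-5.97 to -4.21, adjusted p 5.98e-08). Cd80 had 2 reads in 1 BMPC library and 0 in the other 5. It was at least 4.60-fold lower than in GCB (adjusted p 3.15e-04) and at least 1.39-fold lower than in nB, where it was not called (-0.56, 95% interval -1.13 to 0.01, adjusted p 0.0874) except with a pseudocount of 0.1 (-2.05, adjusted p 0.0134) or voom (-2.04, adjusted p 0.0457).

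Cd83, Icosl, Cd40 and Slamf6 were low but present in BMPC. Cd83 was at 8.13, 0.117 and 7.87 FPKM in Dnmt3-sufficient and 13.9, 0 and 0.394 in Dnmt3-deficient libraries, and it fell against nB (-7.16, 95% interval -8.39 to -5.93, limma adjusted p 3.92e-08). Icosl was at 5.69, 4.35 and 1.92 FPKM in Dnmt3-sufficient and 4.98, 0 and 11.0 in Dnmt3-deficient libraries, 48.5-fold lower than in nB (-5.67, -6.63 to -4.71, adjusted p 3.50e-08). Cd83 was near 0 in 3 of the 6 libraries and Icosl in 1. Cd40 was at 19.5, 0 and 12.3 against 28.7, 18 and 23.9 FPKM, 11.3-fold lower than in nB (-3.95, -5.02 to -2.87, adjusted p 7.44e-06), so 5 of 6 BMPC libraries still held the receptor at 12.3 FPKM or more. Slamf6 was at 16.8, 0.226 and 1.85 against 10.9, 10.3 and 7.0 FPKM and fell by 2.87 against nB (95% interval -3.83 to -1.90, adjusted p 6.40e-05), the smallest change among the 8 called. Every BMPC library lay below every nB and every GCB library for these 4 genes.

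Cd38 and Cd24a departed from this course. Cd38 in BMPC was at 7.30, 0 and 2.58 FPKM in Dnmt3-sufficient and 14.1, 0 and 30.6 in Dnmt3-deficient libraries, a range that spans the GCB libraries. The change from GCB to BMPC was -0.21 (95% interval -1.59 to 1.18, limma adjusted p 0.818), and its sign turned without BMPC Dnmt3-deficient replicate 2 (0.53) or BMPC Dnmt3-sufficient replicate 2 (0.20), the libraries at 0. Cd24a in BMPC was at 363, 393 and 441 FPKM in Dnmt3-sufficient and 341, 112 and 237 in Dnmt3-deficient libraries. Its change was 0.74 from nB to BMPC (0.33 to 1.15, adjusted p 3.88e-03) and -0.69 from GCB to BMPC (-1.09 to -0.28, adjusted p 7.83e-03), both under the minimum of 1. In Dnmt3-sufficient libraries alone the first was called (1.04, adjusted p 6.26e-03), and in Dnmt3-deficient libraries alone the second (-1.18, adjusted p 3.23e-03). CD24 is also abundant on erythroid and early B cells, whose summed markers were at 112 to 1273 and 467 to 837 FPKM in BMPC, against at most 131 and 379 in nB and GCB. Few genes carried these sums. In BMPC Hba-a2 was at 44.4 to 1047 FPKM and Dntt, an early B cell marker, at 305 to 581. Another early B cell marker, Vpreb3, was at 71.1 to 354 in BMPC and at 172 to 378 in nB and GCB. The part of erythroid and early B cells in the Cd24a level was not tested.

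Genes that act with the members were followed as lists. CD40 signals through TRAF adaptors to the noncanonical NF-kB pathway, and of its 11 listed genes 4 fell and 0 rose from nB to GCB, and 10 fell and 0 rose from nB to BMPC, with median changes of -0.90 and -3.30. Over all genes tested 12% and 39.3% were called lower, with medians of -0.13 and -0.79. Nfkb2, the precursor of the p52 subunit, fell by 2.18 in GCB (limma adjusted p 1.5e-03) and by 3.33 in BMPC (adjusted p 1.3e-05). Map3k14, the kinase NIK that starts that pathway, fell by 1.24 (adjusted p 0.045) and 3.45 (adjusted p 6.6e-06). Traf1, a TRAF adaptor, had 15.7 to 38.9 FPKM in nB, 18.6 to 45.7 among GCB libraries and at most 2.95 among BMPC libraries, and it fell in BMPC against GCB (-4.37, adjusted p 4.6e-07) and was not called in GCB against nB. Tnfaip3, the inhibitor A20, was the 1 listed gene not called between any of the cell types.

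Other costimulators did not follow 1 course. Of 8 listed, Tnfsf4 was at 0 in all 18 libraries and 7 were tested, of which 2 rose and 3 fell in GCB against nB, beside 9.47% and 12% of all genes tested. Their median change was -0.79, beside -0.13 over all genes. Tnfsf9 (4-1BB ligand) rose by 2.31 (limma adjusted p 9.5e-03), as Cd86 did, and Cd274 (PD-L1), an inhibitory B7 relative, fell by 3.39 (adjusted p 1.7e-05). In BMPC against GCB, Cd27 rose by 3.18 (adjusted p 4.5e-04) while Tnfsf9 and Cd70, the ligand of CD27, fell. Cd28, the receptor of CD80 and CD86, was at 0 to 2.19 FPKM in nB and GCB and at 22.9 to 72.2 in BMPC (4.48 against nB and 4.70 against GCB, both called). Of 9 T cell markers, Cd28 among them, 4 were called higher and 2 lower in BMPC than in nB. Cd3d and Cd3g rose by 2.12 and 2.23, while Cd4 and Cd8a fell and were at most at 0.111 and 0.504 FPKM in BMPC. The part of T cells in the Cd28 level was not tested.

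Slamf1 and Slamf6 lie in a cluster of SLAM family genes, where 7 of the genes followed here (in order Cd244, Ly9, Slamf7, Cd48, Slamf1, Cd84 and Slamf6) span 390 kb of chromosome 1, from 173489324 to 173879083 on mm9. These neighbours moved in different directions. Slamf7, which plasma cells are known to carry, was at 16.4 to 30.7 FPKM in nB, 71.8 to 88.4 among GCB libraries and 123 to 207 among BMPC libraries, with no overlap, and rose at both steps (1.80 and 1.08, limma adjusted p 1.4e-06 and 1.6e-04). Cd48 was at 179 to 626 over all libraries and was not called between any cell types. Cd84 fell in GCB (-2.71, adjusted p 1.9e-03), where Slamf1 and Slamf6 were not called. Of the adaptors, Sh2d1b1 (EAT-2) rose by 3.75 in GCB (adjusted p 1.1e-03), from 0 to 4.2 FPKM in nB to 14.9 to 38.2.

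**Figure D3:**
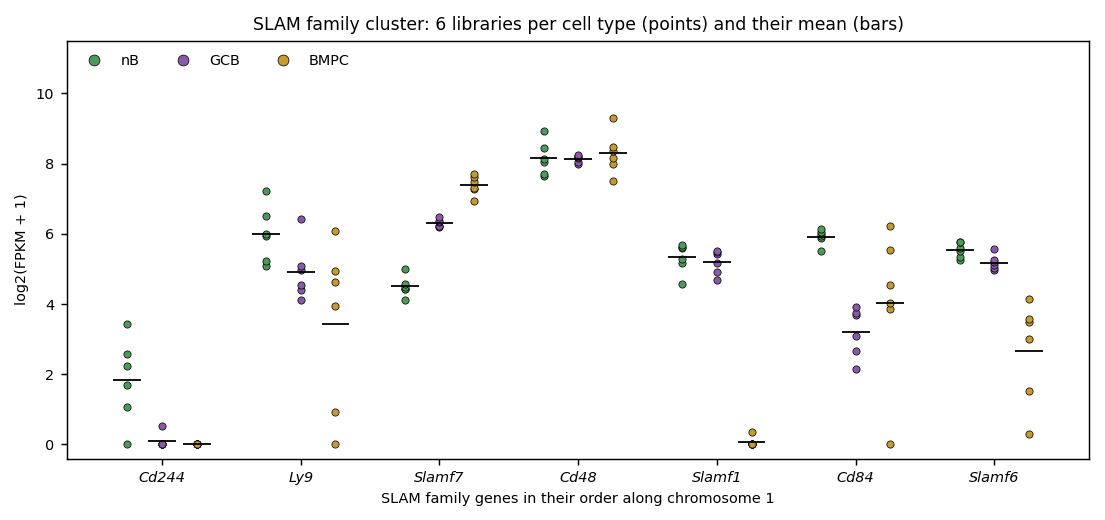
Level of 7 SLAM family genes in their order along chromosome 1, with log2(FPKM + 1) on the vertical axis. Each cell type has 6 points, 1 for each library of both genotypes, and a bar at their mean. Slamf7 climbed from nB to BMPC while Slamf1 and Slamf6, in the same cluster, dropped in BMPC.

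Among 7 listed partners of CD23, CD38, CD24 and CD83, 3 fell in GCB against nB, 4 fell in BMPC against nB and 0 rose in either, beside 12% and 39.3% of all genes called lower. Their median changes were -0.70 and -4.40, beside -0.13 and -0.79 over all genes. Cr2, the complement receptor CD21, had 126 to 209 FPKM in nB, 28.0 to 50.8 among GCB libraries and 0 in all 6 BMPC libraries (-2.18 in GCB against nB, limma adjusted p 3.7e-06), and it was also the gene whose profile over the 18 libraries lay nearest to that of Fcer2a (root mean square difference 1.03 on centred log2 values). Pecam1, a ligand of CD38, fell by 3.20 in GCB (adjusted p 9.4e-05), and Siglecg, an inhibitory receptor that binds CD24, fell by 1.72 (adjusted p 0.043) while Cd24a rose. March1, the ligase that CD83 opposes, fell in BMPC against nB (-5.27, adjusted p 7.2e-08), as Cd83 did. Adam10, the protease that sheds CD23, was at 27.1 to 68.1 FPKM throughout and was not called. For the other members, the nearest profiles by the same measure were Bcl6 for Cd86 (1.05), Lyn for Cd40 (0.456), Il10ra for Cd38 (0.869), Pik3ap1 for Slamf1 (0.356), Ms4a1 for Cd83 (0.777), Cnr2 for Icosl (0.776), Thoc2 for Slamf6 (0.455), Fam57a for Cd80 (0.359) and Mrps18a for Cd24a (0.208).

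The genotypes were then compared within nB and within GCB. By limma, 0 of 10 members were called in either, where 0.0521% of all genes tested were called in nB and 0% in GCB, and 0 of 10 had an unadjusted p under 0.05. With voom on the recovered reads 0 were also called, with 1 member at an unadjusted p under 0.05 in each cell type (Slamf1 in nB and Cd86 in GCB). The difference between the genotype effects in GCB and nB was called for 0 of 10 members (0% of all genes), with 0 at an unadjusted p under 0.05 by limma over the 18 libraries or voom. In the limma fit to the nB and GCB libraries alone 1 member, Cd24a, was under 0.05, and 0 were called. The fitted differences of the members ran from -0.62 to 0.50 in nB and from -0.39 to 0.54 in GCB.

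In nB the libraries of the genotypes did not overlap for 3 members, Slamf1, Cd40 and Cd24a, beside 8.84% of all genes tested, and all 3 were lower in Dnmt3-deficient cells. Slamf1 was at 47.0, 48.7 and 50.8 FPKM in Dnmt3-sufficient and 23.0, 35.2 and 38.3 in Dnmt3-deficient libraries (-0.62, 95% interval -1.42 to 0.18). Cd40 was at 230, 214 and 191 against 181, 162 and 181 (-0.27, -1.79 to 1.24), and Cd24a at 210, 164 and 206 against 163, 142 and 156 (-0.32, -0.90 to 0.25). The limma adjusted p was 1 for each. When nB was fitted by itself these 3 had an unadjusted p under 0.05, and the adjusted p was 0.912 for each.

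In GCB the genotypes did not overlap for Cd86 and Slamf6, beside 10.6% of all genes, and both were higher in Dnmt3-deficient cells. Cd86 differed by 0.54 (95% interval -0.94 to 2.01, limma adjusted p 1) on the values given above, where the Dnmt3-sufficient libraries lay between 91.9 and 95.1 FPKM and the Dnmt3-deficient ones between 101 and 178. Slamf6 was at 30.1, 31.3 and 33.3 against 46.2, 35.5 and 37.5 FPKM (0.32, -1.05 to 1.68, adjusted p 1). In the limma fit to the GCB libraries alone both had an unadjusted p under 0.05, and the adjusted p was 0.788 for Cd86 and 0.780 for Slamf6.

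**Figure D4:**
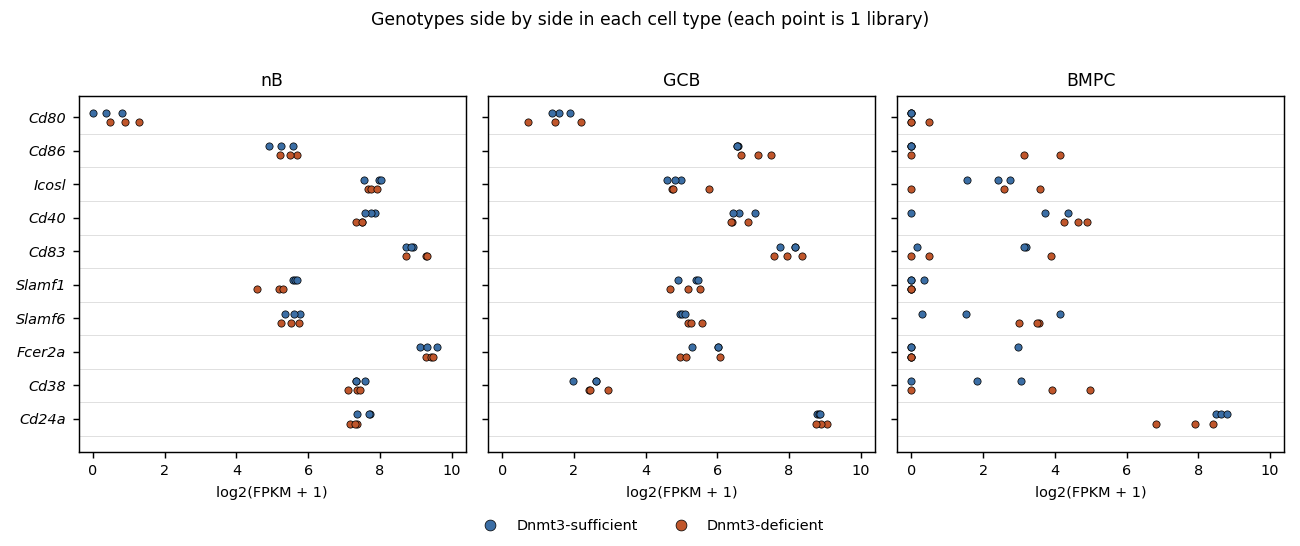
Level of each member in nB, GCB and BMPC, with log2(FPKM + 1) on the horizontal axis and 1 point per library, blue for Dnmt3-sufficient and orange for Dnmt3-deficient. The genotypes lie close together in nB and GCB, and the points of BMPC are spread over several log2 units within a genotype.

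In BMPC the values are a description, since Cd86 was chosen on this comparison. By the call rule 0 of the 10 members passed and 3.98% of all genes tested did, and nothing is read from this count. Cd86 had 0 reads in all 3 Dnmt3-sufficient libraries, and 0, 57 and 45 reads (0, 16.6 and 7.82 FPKM) in the Dnmt3-deficient libraries. The genotypes therefore overlapped at 0, and 2 of 3 Dnmt3-deficient libraries held Cd86 at levels below the 28.9 FPKM of the lowest nB library. The fitted difference was 2.43, and 1.57 to 3.64 when 1 library was left out, with 1.57 without Dnmt3-deficient replicate 2.

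Markers of other cell types did not all move with these values. The 2 libraries with Cd86 reads were also those with the most macrophage and monocyte marker signal, a sum of 212 and 227 FPKM over 7 markers, where the Dnmt3-deficient library without Cd86 was at 98.4 and the Dnmt3-sufficient libraries at 60.1, 90.3 and 63.5. Cd68 made up most of these sums, at 158 and 145 FPKM in these 2 libraries, 98.4 in the Dnmt3-deficient library without Cd86 and 40.5 to 87.6 in the Dnmt3-sufficient libraries, so that it did not overlap between the genotypes. Lyz2 was at 44.1 and 69.3 FPKM in the 2 libraries with Cd86 and 0 to 23.0 in the other 4, Csf1r was at 9.51 in the first and Adgre1 at 13.2 in the second, and Cd14 and Fcgr1 were at 0 in all 6. Itgam had no reads in any Dnmt3-deficient BMPC library and up to 2.56 FPKM in a Dnmt3-sufficient one. Neutrophil markers summed to 582 and 535 FPKM in the same 2 libraries, but also to 526 in Dnmt3-sufficient replicate 1, where Cd86 was at 0. The B cell marker Pax5 was at 0 in all 6 libraries. The part of these cells in the Cd86 values was not tested.

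**Figure D5:**
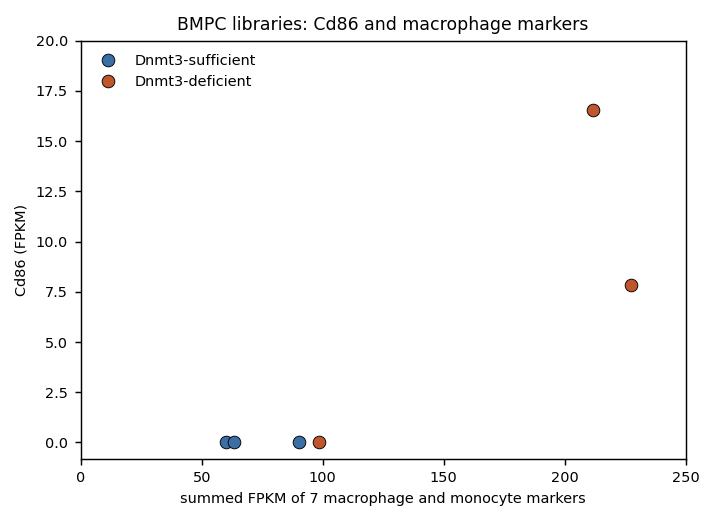
Cd86 level (FPKM, vertical axis) against the summed FPKM of 7 macrophage and monocyte markers (horizontal axis) in the 6 BMPC libraries, 1 point each. The 2 libraries with Cd86, at 16.6 and 7.82 FPKM, are those with marker sums of 212 and 227, and the other 4 are at 0 with sums of 60.1 to 98.4.

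Cd24a was the 1 member of 10 without overlap in BMPC, a count near the share of 10.3% over all genes, and nothing is read from it. Its level was lower in Dnmt3-deficient libraries. Summed erythroid markers also did not overlap and were lower there, at 112 to 472 against 564 to 1273 FPKM. Summed early B cell markers overlapped, at 485, 837 and 467 in Dnmt3-deficient and 740, 710 and 824 in Dnmt3-sufficient libraries, and the library with the least Cd24a (Dnmt3-deficient replicate 2) had the highest of these sums. The part of these cells in the Cd24a values was not tested. Cd40 was at 0 to 19.5 FPKM in Dnmt3-sufficient and 18 to 28.7 in Dnmt3-deficient libraries, which overlapped. Slamf6 was highest in a Dnmt3-sufficient library (16.8 FPKM) and lowest in another (0.226). Cd38 ranged from 0 to 7.30 in Dnmt3-sufficient and from 0 to 30.6 in Dnmt3-deficient libraries. Cd28 was at 22.9, 26.7 and 28.6 FPKM in Dnmt3-sufficient and 58.2, 72.2 and 56.8 in Dnmt3-deficient libraries without overlap, and summed T cell markers, which include it, were at 102 to 221 and 209 to 262. Cd80, Slamf1 and Fcer2a, at or near 0 reads in at least 5 of 6 libraries, allow no comparison of genotypes at this depth.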

How the data were processed

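RNA-seq of 18 libraries was used, with groups, replicate numbers and sex from the labels (nB and GCB, 2 female and 1 male library per genotype, and BMPC, 1 female and 2 male). The authors mapped 50 bp read pairs to mm9 with TopHat, reported at most 1 alignment per read, and counted reads on UCSC KnownGenes exons with summarizeOverlaps. Use of the strand is not stated. Per the labels' processing notes Picard, R 3.2.2 and edgeR 3.12.1 were used. The deposited FPKM values are the authors' counts scaled to exon length and to the library's reads on listed genes. The authors' fold changes and FDR values in the same table were not used. After multiplying by exon length, 100% of values were whole multiples of what 1 read is worth (tolerance 0.01), which gave reads and depth. The libraries were amplified and carry no molecular identifiers, so limits set at 3 reads per library cover counting error only.

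limma 3.58.1 (R 4.3.3) was fitted to log2(FPKM + 1) with 1 mean per group over the 18 libraries and an intensity trend, two-sided, over 11522 genes (FPKM above 1 in 2 libraries or more). Cell type changes are the mean of both genotypes. The genotype contrast in BMPC, which chose Cd86, was part of the same fit, and its values for members are given as a description with no p. The unit is FPKM, so the authors' count model was not refitted. p-values measure the spread between libraries, pooled per gene over all 6 groups, BMPC included. All 10 members are named, and other genes come from lists or are the nearest profile outside the set. The members and lists were chosen with earlier results of these data known. The fit was tested on simulated data with large changes and the same spread in every group. Small changes and the wider spread of BMPC were not simulated. Some genes are not reported here. Positions are from GENCODE vM1 (NCBIM37). Promoters of 6 members were in the RefSeq table, and Cd86, Cd40, Cd83 and Cd24a were not. The alternatives changed the pseudocount (0.1), the filter (none, or FPKM above 3 in 3 libraries or more), the scaling (median of ratios), the samples (only the groups compared, 1 genotype alone, or each library left out), the model (voom on recovered reads, a quality weight for each library, a term for sex, or a replicate block in GCB) and the call (adjusted p of 0.01, or any size of change).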

Additional observations from a re-analysis of the deposited data

How the results depend on the processing

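The counts of members called between cell types stayed within 1.5 times of those given under the alternatives run, at 4 to 6 in GCB against nB, 8 to 9 in BMPC against nB and 7 to 9 in BMPC against GCB. In the genotype comparisons of nB and GCB and in their difference the count was 0 throughout, also with a replicate block in GCB, where same-numbered libraries did not deviate together (r = -8.1e-05, -0.0171 and 0.0257), so the numbers were not taken to pair them. In BMPC, where the genotype contrast chose Cd86, the count is a description and was 0, 1 with a pseudocount of 0.1 and 0 to 2 with 1 library left out. Cd38 in BMPC against GCB turned to 0.36 in Dnmt3-deficient libraries alone and 0.087 with a quality weight, and ran from -0.71 to 0.53 with 1 library left out. Slamf1 in GCB against nB turned to 0.10 in Dnmt3-deficient libraries alone. Of the changes of single members, 1026 kept direction and call, 16 lost the call, 13 gained it and 5 turned. The cause was not tested. Over all genes, 459 were called for the genotypes in BMPC, and 0 in the fit to BMPC alone, 18 with a quality weight, 262 with voom, 297 without a filter, 162 at an adjusted p of 0.01 and 327 to 922 with 1 library left out. In nB the 6 genes became 14 without a filter, 0 in nB alone, 11 with a quality weight, 3 with a pseudocount of 0.1, 2 at an adjusted p of 0.01 and 4 to 13 with 1 library left out. In GCB the 0 became 3 with a quality weight, 2 with voom and 0 to 2 with 1 library left out, and for the difference of the genotype effects the 0 became 5 without a filter, 4 in nB and GCB alone and 1 with a quality weight. In GCB against nB 2474 genes were called, and with 1 genotype alone 1489 (Dnmt3-deficient) and 1631 (Dnmt3-sufficient). In BMPC against GCB 4771 were called, and 3175 in Dnmt3-sufficient libraries alone. Depth limits what can be said of BMPC, where 3 reads are a larger FPKM than in nB or GCB.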
